A study of Mus musculus with 244 samples.

Results

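Receptors of the cell surface that help or restrain T cells and myeloid cells were followed in single macrophages of the mouse aortic arch. The genes are Cd72, Cd83, Slamf9, Cd86, Cd80, Cd40, Cd274, Havcr2, Slamf7 and Cd84, and all 10 symbols were found among the 24475 genes of the table. They had been grouped as receptors enriched before regression, on values of these same cells. The grouping holds for 6 of the 10 (Cd72, Slamf9, Cd83, Cd86, Slamf7, Havcr2), while Cd84, Cd274, Cd40 and Cd80 had similar means in both groups. The differences between the groups are therefore given as a description.

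The regression cells came from atherosclerotic arches of Apoe-/- donor mice that were grafted into WT mice fed chow and collected 3 days later. The baseline cells came from arches of Apoe-/- donors after 16 weeks of high fat diet, without a graft. Donor arches of both groups thus lacked Apoe, the gene of apolipoprotein E, and came from the same diet, although the regression cells themselves carried Apoe transcript; the sources used here give neither ages nor the number of mice behind each group. Sorting selected cells that carried F4/80, CD11b and CD45, and a C1 microfluidic chip then captured them, 1 cell per library. The wording of the extraction protocol refers to islet cells, against the macrophage and aortic arch labels of every sample. Host genotype, diet, surgery, time and the Apoe expression of the cells differ together between the groups and cannot be told apart. No label says whether a regression cell came from the Apoe-/- donor arch or from the WT host. Mean Apoe in log2(RPKM + 1) was 11.86 in regression and 0.30 in the baseline cells of Apoe-/- donors. Donor and host cells may thus be part of the contrast, which was not tested.

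There were 116 regression and 128 baseline libraries. In 3 baseline pairs, 2 libraries were near copies of each other (correlation of log2 values 0.992 to 0.997, against at most 0.624 between any others), and each pair was averaged. After 3 regression cells with few genes were left out, 113 regression and 125 baseline cells remained. RPKM is the number of reads per kilobase of transcript, scaled to library depth, so levels can be set side by side between genes. A gene is called listed in a cell at RPKM of 1 or more, and the median number of listed genes was 2360 in regression and 2491 at baseline. Where the step of 1 read could be read from low values, median depth was 0.927 M reads in regression (62 libraries) and 1.10 M reads at baseline (85 libraries), at which 1 read on a transcript of 2 kb is worth 0.54 and 0.45 RPKM. Macrophage identity was checked with 8 markers, of which at least 3 were listed in 111 regression and 123 baseline cells. Apoe itself averaged 11.86 in regression (8.93, 12.18 and 12.57 in cells 1 to 20, 93 to 111 and 168 to 244) and 0.30 at baseline on the log2(RPKM + 1) scale. No animal is named, so each group counts as 1 sample: SDs are spreads over cells, intervals are exact 95% binomial intervals for counting error alone, and there is no test of any difference. Sample numbers fall into 5 unbroken runs, each of a single condition: 1 to 20, 93 to 111 and 168 to 244 are regression, and 21 to 92 and 112 to 167 are baseline. No source used here says whether these runs were separate captures.

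A T cell reads an antigen on MHC class II together with a second set of signals from the presenting cell. CD80 and CD86, the B7 proteins, bind CD28, which helps activation, and CTLA-4, which restrains it; PD-L1, encoded by Cd274, binds the inhibitory receptor PD-1. CD40 receives CD40 ligand from T cells and signals through TRAF adaptors to NF-kappaB. CD83, best known from maturing dendritic cells, slows the loss of MHC class II and CD86 from the cell surface. TIM-3, encoded by Havcr2, is an inhibitory receptor of T cells that myeloid cells also carry. CD72 is a C-type lectin-like receptor with an inhibitory motif, studied mostly in B cells. SLAMF7, CD84 and SLAMF9 belong to the SLAM family, whose genes lie close together on mouse chromosome 1; SLAMF7 and CD84 each bind their own kind on the neighbouring cell.

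Promoter sequence was available for 7 of the 10 genes in the RefSeq table (GRCm38.p6, the assembly behind mm10); Cd83, Cd86 and Cd40 had no entry. The 250 bases before the start of Cd72 (chr4:43454627-43454876, minus strand), Slamf9 (chr1:172475110-172475359, plus strand) and Havcr2 (chr11:46454681-46454930, plus strand) are shown, because Cd72 and Slamf9 were the pair most alike across cells in each group and because these 3 promoters hold the letters AGGAAGT or their reverse complement ACTTCCT, a core bound by the macrophage factor PU.1. Capitals mark those letters, and each sequence runs 5′ to 3′ on the strand of the gene.
Cd72: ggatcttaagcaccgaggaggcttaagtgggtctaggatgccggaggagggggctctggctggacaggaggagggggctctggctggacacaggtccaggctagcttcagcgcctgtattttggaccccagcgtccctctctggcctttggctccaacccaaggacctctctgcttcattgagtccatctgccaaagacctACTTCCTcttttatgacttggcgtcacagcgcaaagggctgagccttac
Slamf9: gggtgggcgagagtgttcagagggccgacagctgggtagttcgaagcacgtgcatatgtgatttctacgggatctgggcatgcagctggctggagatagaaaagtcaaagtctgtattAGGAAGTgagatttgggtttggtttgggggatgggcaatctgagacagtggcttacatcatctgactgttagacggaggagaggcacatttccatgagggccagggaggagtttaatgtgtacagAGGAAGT
Havcr2: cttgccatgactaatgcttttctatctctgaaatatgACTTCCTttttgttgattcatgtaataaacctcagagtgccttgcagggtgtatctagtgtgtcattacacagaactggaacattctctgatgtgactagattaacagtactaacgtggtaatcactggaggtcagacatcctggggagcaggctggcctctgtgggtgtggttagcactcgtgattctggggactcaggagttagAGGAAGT
The PU.1 letters were found in 3 of the 7 promoters and in 7.69% of all 32851 promoters of the table, searched on both strands over the same length. In Slamf9 and Havcr2 a match ends right at the base before the RefSeq start, 7 bases upstream at its first letter. A further match begins at 132 and 213 bases upstream. In Cd72 the match begins 49 bases upstream. GENCODE, used below for gene positions, starts Slamf9 at 172475358 and Havcr2 at 46454935, so these distances hold for the RefSeq starts only. It starts Slamf7 at 171653035 (minus strand) and Cd80 at 38455561 (plus strand). The RefSeq windows of these genes, chr1:171649000-171649249 and chr16:38458683-38458932, thus lie inside the GENCODE genes. Other letters searched on both strands were TGANTCA (AP-1), found in Cd80, Cd84, Havcr2 and Slamf7 and in 6.75% of all promoters, and the NF-kappaB letters GGG and CC with 5 bases of any kind between them, found in Cd72, Cd80 and Cd84 and in 45.8% of all promoters. The interferon response letters GAAA, repeated after 2 bases of any kind, and the cAMP response letters TGACGTCA were in none of the 7 windows, and in 2.98% and 1.55% of all promoters. A match describes letters, not a bound site.

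Cd72 was the member with the lowest difference between the groups. Its level in log2(RPKM + 1) ran from 0.00 to 9.79 with a median of 0.00 over 113 regression cells, and from 0.00 to 11.94 with a median of 8.65 over 125 baseline cells. The means were 1.69 ± 3.12 (SD) in regression and 6.74 ± 4.00 (SD) at baseline, a difference of -5.06, the second lowest of 9299 genes. The ranges overlapped, but 4 of 113 regression cells lay above the baseline median and 30 of 125 baseline cells lay above the highest regression cell. Cd72 (gene 12517, chromosome 4, 43446462 to 43454628, minus strand) was listed in 28 regression cells (24.8%, interval 17.1 to 33.8%) and 99 baseline cells (79.2%, interval 71.0 to 85.9%). Both the share and the level in listing cells were lower in regression: cells that listed it had a median of 160 RPKM in regression and 506 RPKM at baseline.

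**Figure D1:**
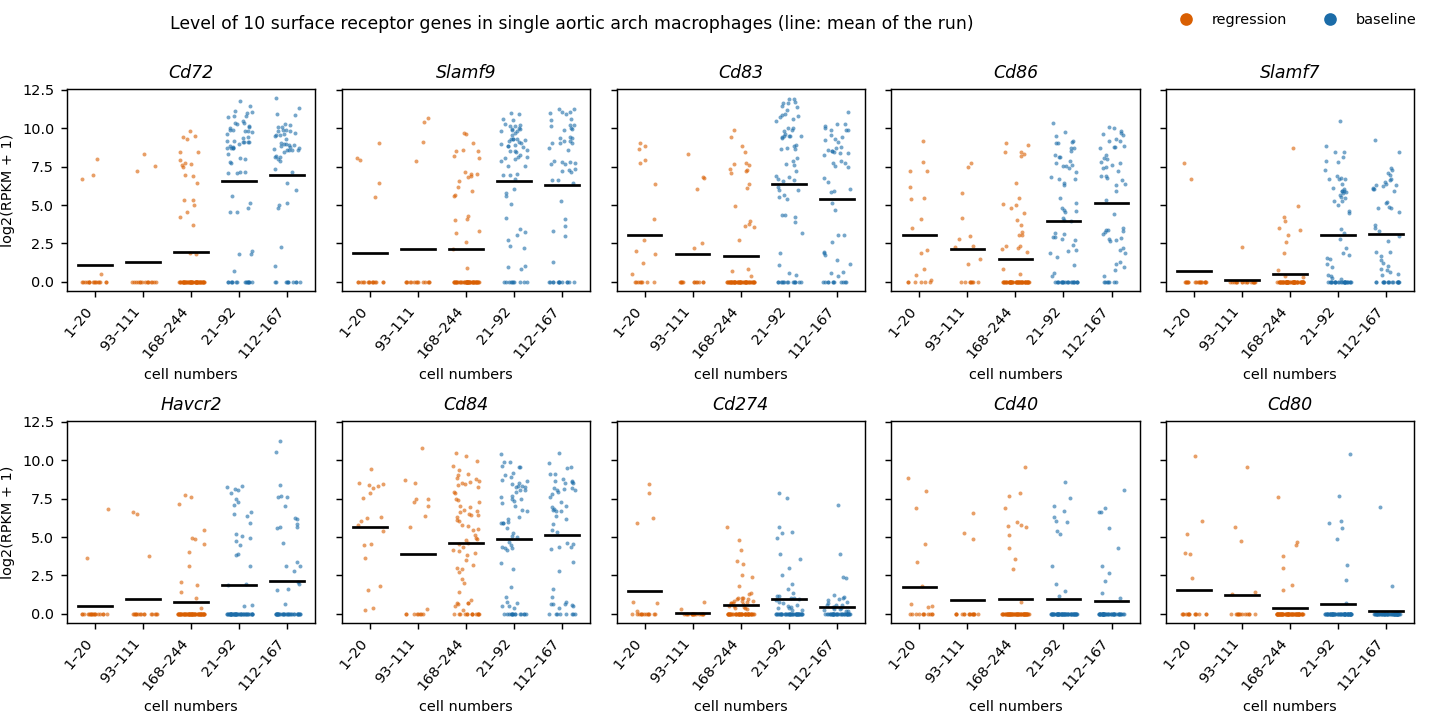
Level of the 10 genes in log2(RPKM + 1) (vertical axis) in each cell, by run of sample numbers (horizontal axis; regression in orange, baseline in blue); black lines are the means of the run. The baseline means of Cd72 (6.57 and 6.96) and Slamf9 (6.55 and 6.33) lie above all 3 regression means, whereas those of Cd84 (4.90 and 5.10) lie among them (3.87 to 5.65).

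Slamf9, a SLAM family receptor whose ligand is not established, had a similar profile. Its level in log2(RPKM + 1) had a median of 0.00 and a highest value of 10.65 in regression, against a median of 7.85 and a highest value of 11.23 at baseline, with 0.00 as the lowest value in both. The means were 2.07 ± 3.39 in regression and 6.45 ± 3.88 at baseline (SD over cells), a difference of -4.38. It was listed in 34 regression cells (30.1%, interval 21.8 to 39.4%) and 100 baseline cells (80.0%, interval 71.9 to 86.6%). Slamf9 was thus the gene of the 10 that the largest number of baseline cells listed. Its gene lies on chromosome 1 (172475358 to 172478575, plus strand).

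Cd83 and Cd86 followed in the size of the difference. Cd83 averaged 1.94 ± 3.14 in regression and 5.92 ± 4.11 at baseline in log2(RPKM + 1), a difference of -3.98, with medians of 0.00 in regression and 6.89 at baseline and highest cells at 9.90 in regression and 11.89 at baseline. It was listed in 31.9% of regression cells (interval 23.4 to 41.3%) and 76.0% of baseline cells (interval 67.5 to 83.2%). Cd86 averaged 1.87 ± 2.80 in regression and 4.49 ± 3.53 at baseline, a difference of -2.62, with medians of 0.00 in regression and 4.17 at baseline and highest cells at 9.15 in regression and 10.36 at baseline. It was listed in 38.1% of regression cells (interval 29.1 to 47.7%) and 73.6% of baseline cells (interval 65.0 to 81.1%). Of the members that differed by -1 or lower, Cd86 thus kept the highest share of listing cells in regression. In listing cells, the median level was 111 RPKM in regression and 358 RPKM at baseline for Cd83, and 20.9 RPKM in regression and 104 RPKM at baseline for Cd86.

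Slamf7 and Havcr2 were lower in regression from a smaller baseline share. Slamf7, which signals in myeloid and natural killer cells through the adaptor EAT-2, was listed in 12 regression cells (10.6%, interval 5.61 to 17.8%) and 72 baseline cells (57.6%, interval 48.4 to 66.4%). Its mean in log2(RPKM + 1) was 0.48 ± 1.53 in regression and 3.08 ± 3.07 at baseline, a difference of -2.60. Havcr2 was listed in 18 regression cells (15.9%, interval 9.72 to 24.0%) and 44 baseline cells (35.2%, interval 26.9 to 44.2%), with means of 0.74 ± 1.89 in regression and 1.98 ± 3.03 at baseline, a difference of -1.25. For Slamf7 the median cell was at 0.00 in regression and 1.92 at baseline, whereas for Havcr2 it was at 0.00 in both groups. The highest cells were also in the baseline group, with 411.1 RPKM in regression against 1384 RPKM at baseline for Slamf7, and 211.0 RPKM in regression against 2392 RPKM at baseline for Havcr2.

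**Figure D2:**
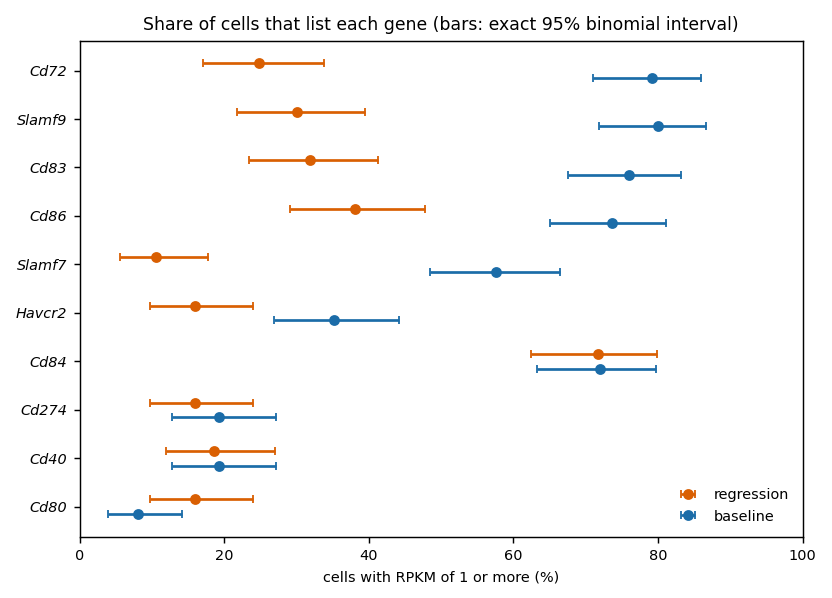
Share of cells in percent (horizontal axis) with RPKM of 1 or more for each of the 10 genes (vertical axis), regression in orange above baseline in blue; bars are exact 95% binomial intervals. The intervals of regression and baseline are apart for the 6 genes from Cd72 to Havcr2 and overlap for Cd84, Cd274, Cd40 and Cd80. For Havcr2 they reach up to 24.0% in regression and from 26.9% at baseline. The intervals cover counting error over cells alone, and the genes were picked on this contrast, so a gap is no test.

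The remaining 4 genes were near equal between the groups, at very different levels. Cd84 was listed in 81 regression cells (71.7%, interval 62.4 to 79.8%) and 90 baseline cells (72.0%, interval 63.3 to 79.7%), with means in log2(RPKM + 1) of 4.65 ± 3.42 in regression and 4.99 ± 3.53 at baseline. It was the member with the highest mean in regression, and with Cd72 at 1.69 there the order of these genes was not that of baseline. Cd40 was listed in 18.6% of regression and 19.2% of baseline cells, with means of 1.09 ± 2.40 in regression and 0.92 ± 2.16 at baseline. Cd274 was listed in 15.9% of regression and 19.2% of baseline cells, with means of 0.67 ± 1.59 in regression and 0.74 ± 1.58 at baseline. Cd80 had the higher mean in regression, 0.72 ± 1.95 against 0.44 ± 1.64 at baseline, and was listed in 18 regression cells (15.9%, interval 9.72 to 24.0%) and 10 baseline cells (8.00%, interval 3.90 to 14.2%). Of the B7 genes, Cd86 thus differed by -2.62 and Cd80 by 0.28. The Cd80 value was 0.04 without cells 112 to 167 and 0.09 without cells 1 to 20, and in the largest regression run Cd80 averaged 0.36, against 0.67 in baseline cells 21 to 92. At baseline, means in log2(RPKM + 1) were ordered Cd72, Slamf9, Cd83, Cd84, Cd86, Slamf7, Havcr2, Cd40, Cd274 and Cd80, and each step was smaller than the SD over cells of the genes on either side.

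Over all 10 genes, the median difference was -1.92, against -0.023 over the 9299 genes that 5% or more of the cells of either group listed; all 10 members passed that filter. A difference of -1 or lower was found for 6 of the 10 members, and for 3.17% of the genes tested. A difference of 1 or higher was found for 0 of the 10 members, and for 2.43% of the genes tested. The mean was lower in regression for 8 of 10, as for 52.8% of the genes tested. Since the members were picked on this contrast, nothing is read from these counts.

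**Figure D3:**
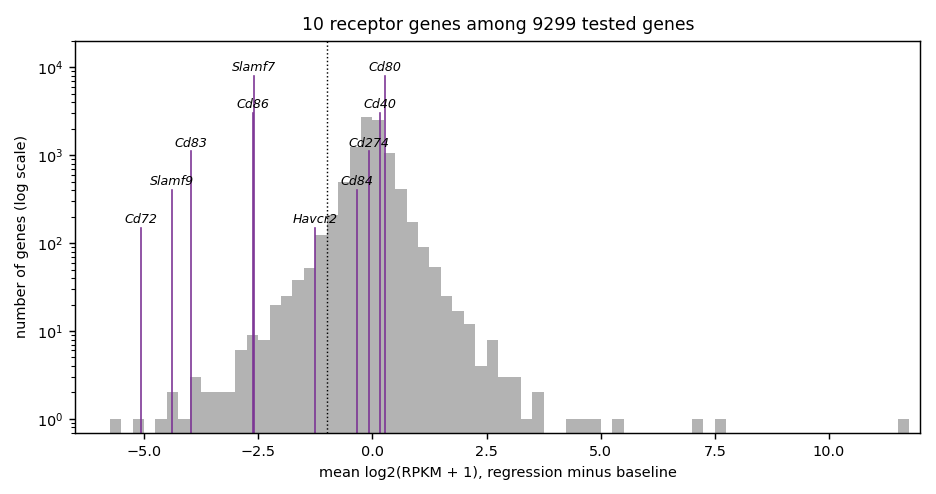
Number of genes (vertical axis, log scale) by mean log2(RPKM + 1) in regression minus baseline (horizontal axis) for 9299 genes in grey, with the 10 receptor genes as labelled lines; the dotted line is at -1. Of the labelled lines, 6 lie left of it, from Cd72 at -5.06 to Havcr2 at -1.25, and 4 lie in the bulk of the genes.

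The 6 genes that were lower in regression were also compared run by run. In all 6 pairings of a regression run with a baseline run, Cd72, Slamf9, Cd83, Cd86, Slamf7 and Havcr2 had the lower mean in regression, a pattern that 16.4% of the genes tested shared. The pairings reuse the cells on which the genes were picked. The difference ran from -5.85 to -4.63 for Cd72 and from -4.70 to -4.20 for Slamf9, a narrow span beside the size of the differences. It ran from -3.65 to -0.89 for Cd86, from -4.67 to -2.35 for Cd83, from -2.97 to -2.34 for Slamf7 and from -1.62 to -0.92 for Havcr2. Cd86 was the member whose difference varied most among these 6; regression cells 1 to 20 averaged 3.07 and baseline cells 21 to 92 averaged 3.96. It was listed in 11 of 20 regression cells numbered 1 to 20 (55.0%, interval 31.5 to 76.9%), 10 of 18 numbered 93 to 111 (55.6%, interval 30.8 to 78.5%) and 22 of 75 numbered 168 to 244 (29.3%, interval 19.4 to 41.0%), against 46 of 69 and 46 of 56 cells in the baseline runs (66.7% and 82.1%). The larger regression run thus held the lowest share of Cd86-listing cells.

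Within regression, cells 1 to 20 had the highest mean of 7 members. Cd83 was listed in 11 of these 20 cells (55.0%), in 6 of 18 cells numbered 93 to 111 (33.3%) and in 19 of 75 numbered 168 to 244 (25.3%), with means in log2(RPKM + 1) of 3.04, 1.82 and 1.67. Cd84 was listed in 90.0%, 50.0% and 72.0% of the cells of these runs, Cd80 in 30.0%, 27.8% and 9.33%, and Cd40 in 30.0%, 16.7% and 16.0%. Cd274 was listed in 4 of 20, 0 of 18 and 14 of 75 cells; the 0 of 18 allows a share of up to 16.7% at a limit of 3 cells, and the exact interval reaches 18.5%. The means of Cd274 and of Cd86 were also highest in cells 1 to 20, whereas Cd72 (1.11, 1.28 and 1.94) and Slamf9 (1.85, 2.11 and 2.13) were lowest there. Intervals of these small runs were wide, from 31.5 to 76.9% for Cd83 in cells 1 to 20. The baseline runs were close to each other for Cd72 (76.8% and 82.1% of cells), Slamf9 (82.6% and 76.8%), Cd83 (76.8% and 75.0%) and Slamf7 (55.1% and 60.7%), and Cd80 was listed in 8 of 69 cells numbered 21 to 92 and in 2 of 56 numbered 112 to 167.

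The number of the 10 genes listed in the same cell was lower in regression. A regression cell listed 2.73 ± 1.83 of them and a baseline cell 5.20 ± 1.74 (mean and SD over cells), with medians of 2 in regression and 5 at baseline. At least 3 were listed in 53 regression cells (46.9%, interval 37.5 to 56.5%) and 116 baseline cells (92.8%, interval 86.8 to 96.7%), and at least 5 in 21 regression cells (18.6%, interval 11.9 to 27.0%) and 85 baseline cells (68.0%, interval 59.1 to 76.1%). No member was listed in 9 regression cells, all numbered 168 to 244, and in 0 baseline cells. All 10 were listed in 1 baseline cell. The run means in regression were 3.40, 2.44 and 2.63 (cells 1 to 20, 93 to 111 and 168 to 244). At baseline they were 5.16 and 5.25 (cells 21 to 92 and 112 to 167). The genes were picked on this contrast in these same cells, so nothing is read from these counts.

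**Figure D4:**
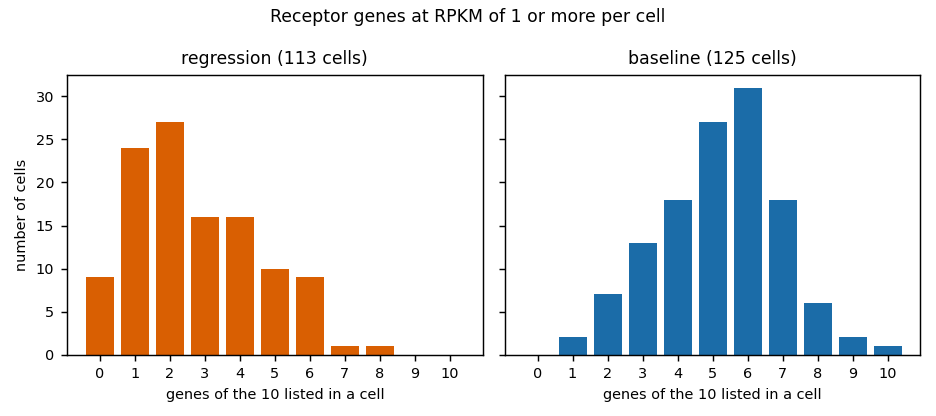
Number of cells (vertical axis) by how many of the 10 genes a cell listed at RPKM of 1 or more (horizontal axis), regression left and baseline right. The most frequent numbers are 1 and 2 genes in regression (24 and 27 cells) and 5 and 6 genes at baseline (27 and 31 cells).

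The count of members followed the number of genes that a cell listed, with Pearson correlations of 0.52 over 113 regression cells and 0.58 over 125 baseline cells. It was therefore also read among cells of like gene number. Cells with 1000 to 2000 genes listed 1.69 ± 1.35 members in regression (32 cells) and 3.71 ± 1.51 at baseline (28 cells). Those with 2000 to 3000 genes listed 2.62 ± 1.78 in regression (50 cells) and 5.27 ± 1.45 at baseline (63 cells), and those with 3000 or more listed 4.00 ± 1.59 in regression (31 cells) and 6.29 ± 1.55 at baseline (34 cells). The mean was lower in regression in each of these 3 classes. The members were picked on this contrast in these same cells, so these counts are a description. The part of gene number in the difference was not tested. Ribosomal protein genes held a median of 13.0% of summed RPKM in regression and 9.00% at baseline; their part in the differences was not tested.

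Cd72, Slamf9, Cd83 and Cd86 were listed together in more baseline than regression cells. All 4 were listed in 5 regression cells (4.42%, interval 1.45 to 10.0%) and 63 baseline cells (50.4%, interval 41.3 to 59.5%), and none of the 4 in 38 regression cells (33.6%, interval 25.0 to 43.1%) and 2 baseline cells (1.60%, interval 0.194 to 5.66%). The cells with all 4 were 31 of 69 and 32 of 56 in the baseline runs, and 1 of 20, 0 of 18 and 4 of 75 in the regression runs. These 4 genes were combined because of their high baseline shares and large differences, so the counts are a description. Each of the 4 by itself was also listed by a larger share of baseline cells. The counts therefore do not separate joint listing from the shares of the single genes.

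Cd72 and Slamf9 were the pair most alike across cells in either group. In regression, 18 of 28 cells with Cd72 also listed Slamf9 (64.3%), against 18.8% of the 85 cells without Cd72. At baseline, 86 of 99 cells with Cd72 listed Slamf9 (86.9%), against 53.8% of the 26 without. The Pearson correlation of their log2 values, after the mean of each run was subtracted, was 0.53 over 113 regression cells (0.44 to 0.56 within runs) and 0.40 over 125 baseline cells (0.25 and 0.58 within runs). Cd72 was listed in 3 cells each of regression runs 1 to 20 and 93 to 111, so the values within those runs rest on few cells. With the number of listed genes also removed, the pooled correlation was 0.48 in regression and 0.35 at baseline. Cells share library depth and capture, so these correlations are given without a p. Among 3396 genes listed in at least 25% of all cells, Slamf9 was second in likeness to Cd72 (0.45 over 238 cells) and Cd72 was first in likeness to Slamf9.

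The other pairs of these 4 genes were linked at baseline and less evenly in regression. Cd83 was listed by 82.8% of baseline cells with Cd72 and 50.0% of those without, with a correlation of 0.37 (0.35 and 0.39 within runs), but by 39.3% of regression cells with Cd72 and 29.4% of those without, with a correlation of 0.18 that ran from -0.28 to 0.30 within runs. The regression range rests on few cells, since Cd72 was listed in 3 cells of each smaller run. Cd86 with Slamf9 had a correlation of 0.17 in regression and 0.33 at baseline, and Cd83 with Cd86, whose protein CD83 helps keep at the surface, had 0.27 in both groups. The differences of these correlations between the groups were not tested. Over the 45 pairs, the median correlation was 0.08 in regression and 0.03 at baseline, and only 1 pair in regression (Cd72 with Slamf9) and 5 pairs at baseline reached 0.3, all among the same 4 genes. Among the SLAM family members, Slamf9 with Cd84 had correlations of -0.05 in regression and 0.28 at baseline (0.17 and 0.41 within baseline runs), Slamf7 with Slamf9 had 0.20 in regression and -0.03 at baseline, and Slamf7 with Cd84 had 0.09 in regression and 0.12 at baseline.

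**Figure D5:**
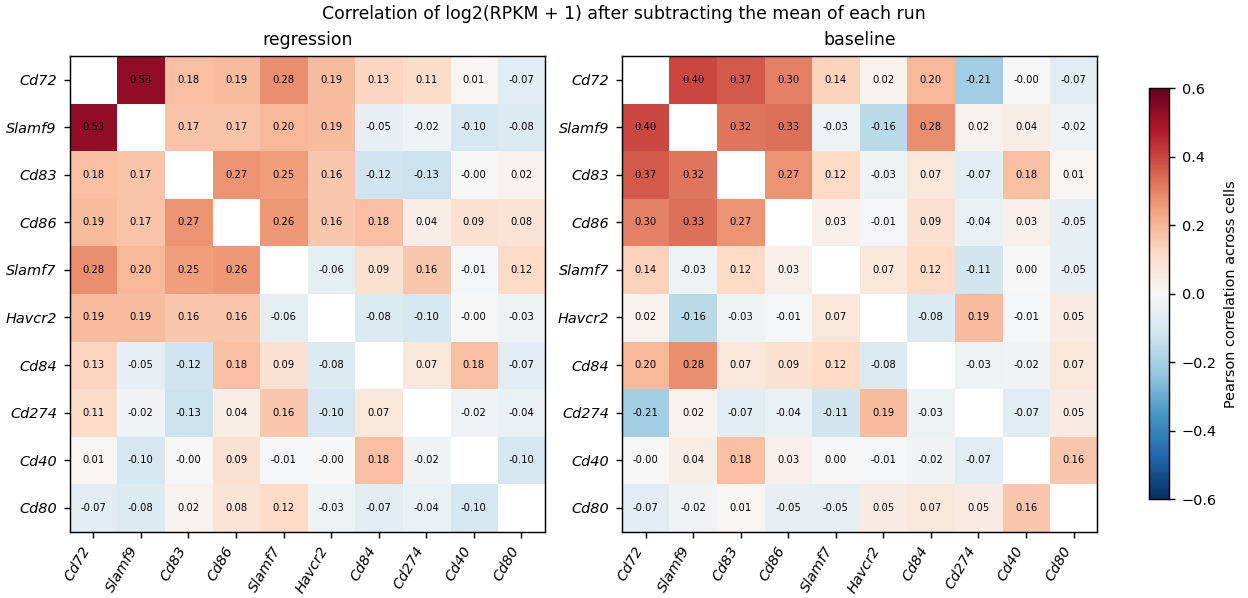
Pearson correlation across cells (colour and printed value) of log2(RPKM + 1) for each pair of the 10 genes, after subtracting the mean of each run of sample numbers; regression (113 cells) left, baseline (125 cells) right. Cd72 with Slamf9 is the highest value in both panels, 0.53 in regression and 0.40 at baseline.

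Stimulatory and inhibitory ligands were combined as follows. At least 1 of the B7 genes Cd80 and Cd86 was listed in 51 regression cells (45.1%) and 94 baseline cells (75.2%), and both in 10 regression and 8 baseline cells. Of the cells with a B7 gene, Cd274 was also listed in 8 in regression and 20 at baseline, and Cd40 in 13 in regression and 19 at baseline. By runs, a B7 gene was listed in 15 of 20, 12 of 18 and 24 of 75 regression cells (75.0%, 66.7% and 32.0%), and in 48 of 69 and 46 of 56 baseline cells (69.6% and 82.1%). The smaller regression runs were thus within the range of the baseline runs or just below it, and cells 168 to 244 stood lower. Cd274 was listed by 16.2% of baseline cells with Cd72 and 30.8% of those without, with a correlation of -0.21 (-0.23 and -0.18 within runs). In regression the correlation was 0.11 and ran from -0.14 to 0.47 within runs. That range rests on few cells: Cd72 was listed in 3 cells of each smaller regression run, and Cd274 in 0 of 18 cells numbered 93 to 111.

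Genes with the cell pattern most like a member's were named by Pearson correlation over 238 cells, after the mean of each run was subtracted, among 3396 genes. For Cd72 they were Tanc2 (0.46), Slamf9 and Tgfbr1, a receptor subunit for TGF-beta (0.43). For Slamf9 they were Cd72, the receptor tyrosine kinase Axl (0.42) and the tetraspanin gene Cd81 (0.38), and for Cd83 they were Herpud1, an endoplasmic reticulum stress gene (0.39), the heparan sulfate proteoglycan Sdc4 (0.38) and the chemokine Ccl4 (0.36). For Cd86 they were Rgs1, a regulator of G protein signalling (0.32), Syngr2 (0.30) and Runx1, a transcription factor of blood cells (0.30). The leading values for Havcr2 (Tgm2, 0.27), Slamf7 (U2surp, 0.30) and Cd84 (Lilr4b, 0.29) were lower, and weak correlations in sparse values are no finding. The named genes themselves differed between the groups in both directions. The lowest differences were -5.73 for Cd81, -4.05 for Ccl4 and -3.42 for Herpud1, while Tgm2 differed by 1.32 and Ctsd, one of the genes alike to Cd84 (0.28), by 2.10.

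Partners of the receptors were covered by lists taken as a whole. Of 8 counter-receptors and ligands, 4 passed the filter of 5% of cells, and none differed by -1 or lower or by 1 or higher. The T cell genes Cd28 and Cd40lg, which encode the receptor CD28 and CD40 ligand, were listed in 0 cells of either group, and Pdcd1, which encodes PD-1, in 0 regression and 3 baseline cells. Lgals9, whose product galectin-9 binds TIM-3, was listed in 51.3% of regression and 46.4% of baseline cells, and Sema4d, a ligand of CD72, in 38.1% of regression and 44.8% of baseline cells. Of 14 signalling partners, 13 passed the filter, with a median difference of -0.44. A difference of -1 or lower was found for 3.17% of all genes tested and for 4 of these partners. These were Sh2d1b1, which encodes EAT-2 (-1.59, listed in 7.96% of regression and 32.0% of baseline cells), the kinase gene Fyn (-1.59), the NF-kappaB subunit gene Rel (-1.54) and Ptpn6, whose phosphatase SHP-1 binds the inhibitory motif of CD72 (-1.10). The TRAF adaptors of CD40 differed by -0.44 (Traf1), -0.31 (Traf2), 0.09 (Traf3) and -0.07 (Traf6), and Nfkb2 by 0.50.

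Relatives of the receptors differed in both directions. Of 10 symbols of other SLAM and TIM receptors, 9 were in the table and 4 passed the filter: Cd48, the ligand of the receptor that Cd244 encodes, differed by -1.58 (listed in 76.1% of regression and 87.2% of baseline cells), Cd244 by -0.75, Slamf8 by -0.59 and Ly9 by 0.10. Slamf1 was listed in 0 cells of either group. Among other costimulators, Icosl differed by -0.80 (listed in 16.8% of regression and 33.6% of baseline cells) and Tnfsf9, the ligand of 4-1BB, by -0.71. Also past the filter in this list, 4632428N05Rik differed by 0.30 (listed in 80.5% of regression and 78.4% of baseline cells) and Cd276 by -0.00. Pdcd1lg2, which encodes PD-L2, was listed in 0 regression and 3 baseline cells. Of 11 other inhibitory receptors, all past the filter, 3 differed by -1 or lower and 4 by 1 or higher, with a median of 0.29. Over all genes tested, these shares were 3.17% and 2.43%. Clec12a (-2.37), Lair1 (-1.12) and Lilrb4a (-1.01) were lower in regression, and the Fc receptor Fcgr2b (1.47), Cd300a (1.44), Clec4a2 (1.26) and Pirb (1.02) were higher. The inhibitory receptors of this list thus differed in both directions.

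MHC class II genes, which carry the antigen signal, had a median difference of -2.96, with 6 of 7 at -1 or lower, against 3.17% of all genes tested. Over the 10 members, the correlation of the list's mean level with the member ran from -0.11 (Cd84) to 0.30 (Slamf9) in regression. At baseline it ran from -0.11 (Cd72) to 0.18 (Cd80). With Cd72 it was 0.07 in regression, and with Slamf9 it was 0.15 at baseline. In regression, each member was listed by a higher share of the 84 cells with Cd74, the invariant chain gene, than of the 29 without. The shares were 28.6% and 13.8% for Cd72, 36.9% and 10.3% for Slamf9, and 19.0% and 17.2% for Cd40. Listing of members followed the gene number of a cell. Neither gene number nor the same comparison over all genes is given for these cells, so nothing is read from these shares. At baseline only 8 cells lacked Cd74. Regression cells 93 to 111, whose Cd72 mean was 1.28 against 6.57 and 6.96 in the baseline runs, had class II means on both sides of those runs. H2-Aa lay above both baseline runs (10.24 against 10.04 and 8.98 in log2(RPKM + 1)). H2-Ab1 (9.83 against 10.09 and 8.19), H2-Eb1 (8.94 against 9.07 and 7.61) and H2-DMb1 (3.83 against 5.24 and 3.61) lay between them. Cd74 (10.60 against 11.22 and 11.13), H2-DMa (4.16 against 5.80 and 5.02) and Ciita (0.19 against 0.98 and 0.41) lay below both.

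Markers of other cells and of tissue handling were set beside these results. Of 7 B cell markers, Pax5 was listed in 0 of 238 cells, Cd79a in 0 regression and 3 baseline cells, and at least 3 markers in 2 regression and 0 baseline cells; their summed RPKM ran from 0 to 655.7 in regression and from 0 to 2803 at baseline, led by Blnk, which macrophages also express and which differed by -1.70 (listed in 24.8% of regression and 54.4% of baseline cells). Of 6 neutrophil markers, 4 passed the filter of 5% of cells, and all 4 had the higher mean in regression (median difference 0.61), led by S100a8 at 1.21 (listed in 23.9% of regression and 8.80% of baseline cells). At least 3 of these markers were listed in 14 regression and 5 baseline cells, with summed RPKM up to 29860 in regression and up to 17710 at baseline, and the defining marker Ly6g was listed in 0 cells of either group. Among cells with under 2 neutrophil markers, Cd72 was listed in 27.5% of 69 regression and 80.6% of 103 baseline cells. Of 9 dendritic cell markers, at least 3 were listed in 0 regression and 8 baseline cells, with summed RPKM from 0 to 1634 in regression and from 0 to 2717 at baseline; Zbtb46 was listed in 0 regression and 2 baseline cells. Cells that listed at least 2 B cell markers or at least 2 dendritic cell markers were then left out (105 regression and 99 baseline cells stayed). The differences were -4.98 for Cd72, -4.57 for Slamf9, -3.84 for Cd83 and -2.70 for Cd86. With all cells they were -5.06, -4.38, -3.98 and -2.62. The cut counts Blnk and Batf3, listed in 54.4% and 24.8% of baseline cells, so it does not isolate B cells or dendritic cells. The part of such cells in the differences was not tested. The mean level of 13 genes that tissue digestion can induce was 4.10 in regression and 5.00 at baseline in log2(RPKM + 1), with 4.43, 4.03 and 4.03 in the regression runs and 5.63 and 4.22 in the baseline runs. Its correlation across cells with Cd83 was 0.19 in regression and 0.37 at baseline, and with Slamf9 it was 0.21 in regression and 0.40 at baseline. Between the baseline runs, cells 21 to 92 had the higher mean of these genes and of Cd83 (6.34, against 5.40 in cells 112 to 167) and Slamf9 (6.55, against 6.33), and the lower mean of Cd72 (6.57, against 6.96). The part of tissue handling in the differences was not tested.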

How the data were processed

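The authors deposited 1 table of RPKM values for 24475 genes and 244 libraries, with a second file of gene symbols and chromosomes; the submitters' processing notes name mm10, CASAVA 1.8.2 and FastQC, while the sources used here do not give the aligner, annotation or RPKM program. Libraries were made with SMARTer chemistry and Nextera XT, per the labels' protocols, so values carry amplification noise and no molecular identifiers. Since RPKM is a normalized unit, count models do not apply and none was run.

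Each column was assigned by the number in a sample's title. Libraries with log2 correlation above 0.9 were averaged, and a cell was kept where at least 1000 genes reached RPKM of 1. Doublets were not called. A difference is the mean log2(RPKM + 1) over regression cells minus that over baseline cells; this scale understates the differences of low genes. Depth was estimated from 5727 genes with 1 transcript in GENCODE vM21, as the step at which low values became whole multiples, and is given where separate random sets of genes yielded the same step within 10%. Gene positions come from the same annotation. The script was tested on simulated data.

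The members, lists and motifs were chosen with earlier results of these data known. The genes named are the 10 members, for each member that at least 25% of either group's cells listed the 3 genes most alike to it among genes that 25% of all cells listed, and members of the partner lists that passed the 5% filter or were absent. Each group is 1 sample, so no p-value was computed. Alternatives were pseudocounts of 0.1 and 10, other levels that count as listed, other cell filters, rescaling, the log2 ratio of mean RPKM, near copies kept apart and each run of sample numbers left out. Analyses used Python 3.11.15, numpy 2.4.6, pandas 2.3.3 and scipy 1.17.1.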

Additional observations from a re-analysis of the deposited data

How the results depend on the processing

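Over 13 alternatives, the difference stayed negative for Cd72 (-6.85 to -3.30), Slamf9 (-6.03 to -2.48), Cd83 (-5.44 to -2.57), Cd86 (-3.78 to -1.53), Slamf7 (-4.20 to -1.26) and Havcr2 (-2.65 to -0.66). With a pseudocount of 10, the median difference of the 10 genes was -0.96 and Havcr2 stood at -0.66, because a larger pseudocount shrinks low values. The share of cells that listed at least 3 members was 56.6% in regression and 97.6% at baseline when any value above 0 counted as listed, 34.5% in regression and 84.8% at baseline at RPKM of 10 or more, and 58.0% in regression and 97.9% at baseline in cells with at least 2000 genes; the baseline share was the higher in each. The share of all genes at -1 or lower was 1.21% without a filter on genes and 7.37% among genes that 25% or more of either group's cells listed. Near-zero differences were not stable in sign: Cd84 was 0.13 in cells with at least 2000 genes, and Cd274 was 0.22 as a log2 ratio of mean RPKM values and 0.19 without cells 21 to 92. Cd80 was 0.99 without cells 168 to 244 and 0.04 without cells 112 to 167, and Cd40 was 0.44 without cells 168 to 244. Leaving out cells with 2 or more dendritic cell or B cell markers was added after seeing the data. No paired analysis was possible because no animal is named and each group is 1 sample. Cd274 had the lowest median level in listing cells of the 10 genes, 6.35 RPKM in regression and 4.50 RPKM at baseline. The part of depth in its shares was not tested.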
